A study of Homo sapiens with 2 samples.

Results

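Mitochondrial complex I subunits encoded in the nucleus were followed between 2 cultures of MIA PaCa-2, an established human pancreatic cancer cell line. The members were the 36 genes whose symbols in the deposited gene table matched a fixed list of NDUF subunit genes, out of 58698 genes in the table. Total RNA was sequenced from cells with a guide against GFP, a sequence that human cells lack, which the labels call wild type (sgGFP), and from cells with a guide against TPST2, which the labels call a TPST2 knockdown (sgTPST2). TPST2 is a tyrosylprotein sulfotransferase of the Golgi. The sources used here do not give whether each culture was a pool or a clone, how the guide acted or how long the cells were grown. Each condition was 1 library, so no test was made, and no difference below has a replicate check. Levels are read as FPKM, fragments per kilobase and library size, a scale per length on which genes can be compared.

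Complex I is the entry point of electrons from NADH into the respiratory chain. Its matrix arm oxidises NADH in the N module and passes electrons along iron-sulfur clusters to ubiquinone in the Q module, and its membrane arm pumps protons. Core subunits carry the chemistry, accessory subunits surround and stabilise them, and the membrane core is encoded in mitochondrial DNA, so the complex needs products of both genomes in balance. Pancreatic cancer cells use the respiratory chain alongside a high rate of glycolysis.

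TPST2 stood at 8.46 FPKM in sgGFP and at 1.92 in sgTPST2, a log2 difference of -1.70. All differences here are log2((sgTPST2 + 1)/(sgGFP + 1)), so negative values are lower in sgTPST2. Judged by the step between low values, a level of 1 FPKM rested on roughly 42.0 fragments for each kb in the sgGFP library and on 47.8 in the other. The mesenchymal filament gene VIM was at 2661 and 3118 FPKM in sgGFP and sgTPST2, and the epithelial keratin gene KRT8 at 509.9 and 41.6; pairs of levels below keep this order. EPCAM and CDKN2A, the latter known to be deleted in this line, are listed at 0 in both. Of markers of other cells, 3 of 8 fibroblast genes (summing to 50.1 and 16.5 FPKM), 2 of 6 leukocyte genes (5.99 and 3.28 FPKM) and 2 of 6 endothelial genes (12.6 and 0.413 FPKM) reached 1 FPKM, and 0 of 6 acinar or islet genes did. Of the fibroblast genes, COL1A2 was at 29.05 and 3.47 FPKM, COL3A1 at 18.5 and 11.9, and ACTA2 at 2.55 and 1.09. Of the leukocyte genes, CD68 was at 3.32 and 1.51 FPKM and CD14 at 2.67 and 1.76. The endothelial gene EMCN was at 9.64 and 0.136 FPKM and CDH5 at 2.93 and 0.277. Other markers on these lists, among them DCN (fibroblasts), CD3E (T cells) and PECAM1 (endothelium), are listed at 0 in both. The part of these markers in the results was not tested. In bulk RNA, a lower level in every cell and a loss in some of the cells cannot be told apart.

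All 36 subunit genes were expressed well above the floor of 1 FPKM in both libraries. In sgGFP they ran from 34.6 FPKM for NDUFA6 to 443 for NDUFS5, a 12.8-fold range with a median of 121. In sgTPST2 they ran from 34.8 FPKM for NDUFV3 to 473 for NDUFS5, again with a median of 121. Their summed level was 4935 FPKM in sgGFP and 4988 in sgTPST2, 1.07% apart. The order of levels also stayed close, with a Spearman rho of 0.94 across the 36 genes, given as a description because the genes share the same 2 libraries. Of the 36, 30 moved by at most 3 places in that order. The largest move, 16 places, was that of NDUFA9, from the 10th highest in sgGFP to the 26th in sgTPST2.

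**Figure D1:**
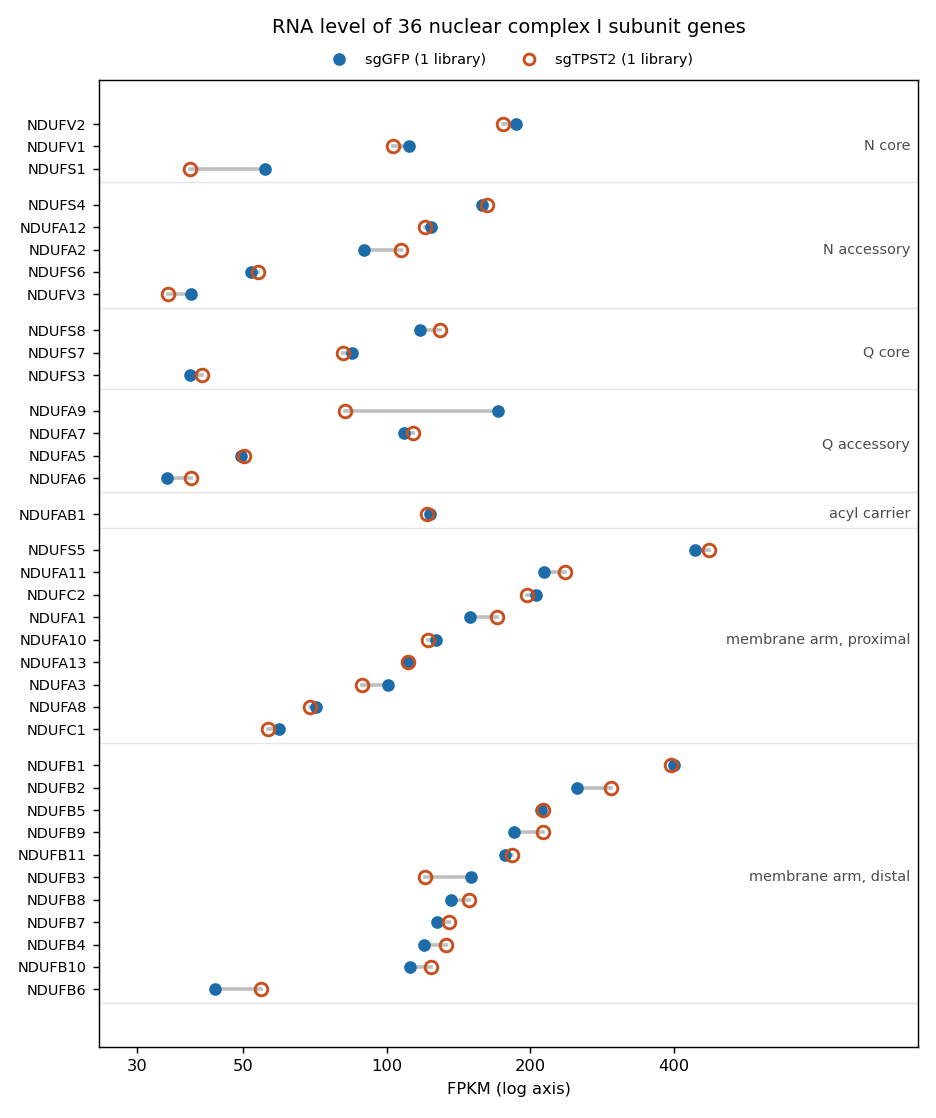
RNA level in FPKM on a log axis for each of the 36 subunit genes, in sgGFP (filled points) and sgTPST2 (open points), grouped by module; each point is 1 library and there are no error bars. Most pairs of points nearly touch, while NDUFA9 falls from 171 to 81.6 FPKM and NDUFS1 from 55.5 to 38.7.

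Differences of the subunit genes were small apart from NDUFA9. Their median was 0.03 and their interquartile range 0.20. Over the 13420 genes of the table whose higher value was at least 1 FPKM, the median was 0.00 and the interquartile range 0.35. Over protein-coding genes with a mean of at least 20 FPKM, the interquartile range was 0.26, nearer that of the subunits, with a median of 0.01. By a threshold of 1.5-fold, 1 of the 36 was lower (NDUFA9) and 0 were higher. The same threshold called 6.94% of all 13420 genes lower and 4.41% higher, and 3.59% and 1.79% of the 4571 protein-coding genes with a mean of at least 20 FPKM, nearer the level of the subunits. A count of 1 in 36 is therefore near the background. At 1.2-fold, 3 were lower (NDUFA9, NDUFS1 and NDUFB3) and 1 was higher (NDUFB6), where 17.3% and 16.2% of all genes were. Of those 4571 genes, 496 were lower and 523 higher at 1.2-fold. At 2-fold, NDUFA9 alone was lower and 0 were higher, against 2.93% and 1.61% of all genes and 67 and 25 of those 4571. The counting interval left out 0 for 22 of the 36, as for 65.4% of those 4571 genes. Of the 36 genes, 30 lay within 0.2 of no difference. Of the 36, 0 have q at or under 0.05 in the authors' deposited table, as 0.517% of the tested genes do. The authors' deposited table gives all 36 the same q of 0.99965, and NDUFA9 is the only member with a p-value under 0.05 (p = 0.04765), as are 3.19% of the 18574 genes the authors tested.

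**Figure D2:**
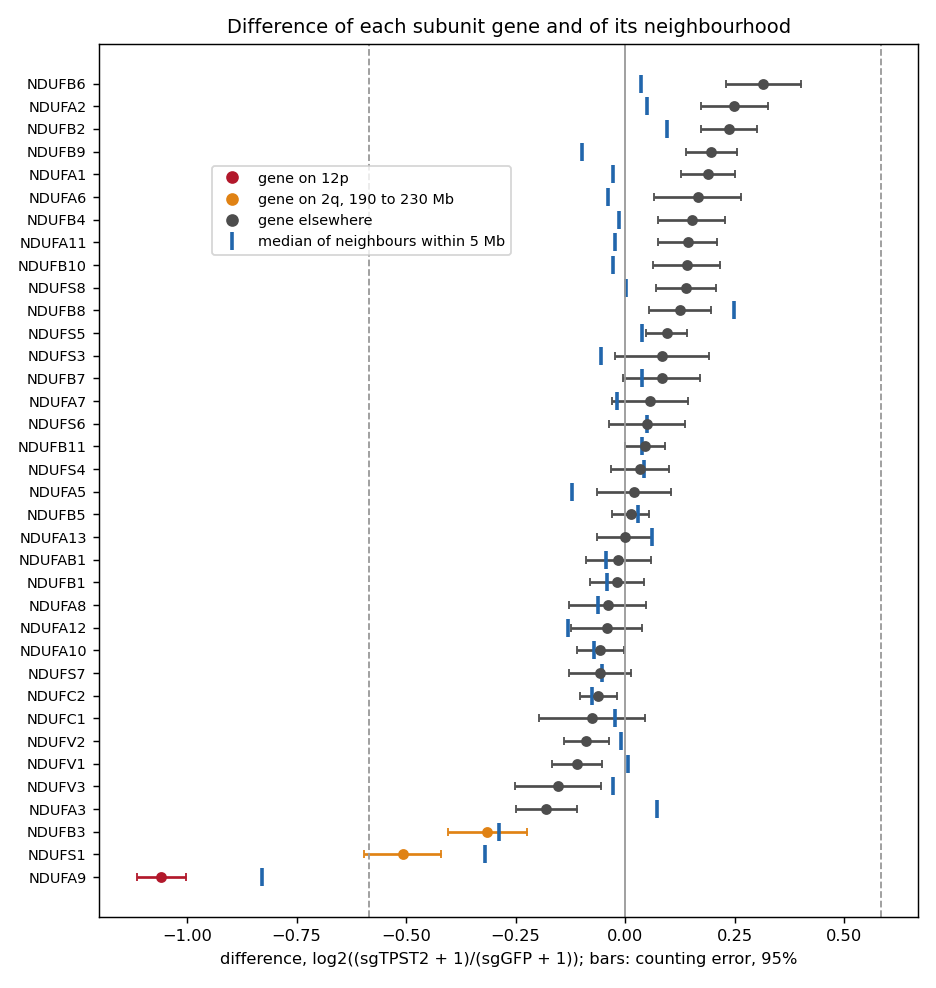
Difference of each of the 36 subunit genes between sgTPST2 and sgGFP on the log2 scale (points), with bars for the 95% counting error only, and the median difference of protein-coding neighbours within 5 Mb (blue ticks); dashed lines mark 1.5-fold. NDUFA9 at -1.06 lies beyond the lower dashed line, NDUFS1 at -0.51 and NDUFB3 at -0.31 follow, and the other genes lie between -0.18 and 0.32.

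NDUFA9 was the lowest of the 36. Its product belongs to the short-chain dehydrogenase family, binds a nucleotide and sits where the matrix arm meets the membrane arm, close to the ubiquinone site. The gene (ENSG00000139180.10) lies on the plus strand of chromosome 12 from 4649095 to 4694317 (GRCh38), on the short arm, 12p. It stood at 171 FPKM in sgGFP and 81.6 in sgTPST2, so its level fell by 52.3%, a difference of -1.06. The counting interval of that difference, from -1.116 to -1.003, covers counting error only. Relative to the median subunit of the same library, NDUFA9 went from 1.41 to 0.675 times.

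The promoter sequences given here, from RefSeq (GRCh38.p14), are those of NDUFA9, of NDUFA6, which carries the same YY1-type letters but was not lower, and of NDUFS1, the second lowest member. Each runs from 250 bases before to 50 after a RefSeq transcript start, 5′ to 3′ on the gene's own strand; these starts differ from the gene ends of the GENCODE coordinates given for the members. RefSeq lists 2 promoters for NDUFS1, of which that at the higher coordinates is shown. Capitals mark letters matched on either strand by the NRF1-type motif, CCGGAAG (ETS) or AAGATGGCG (YY1-type), motifs of factors known to act at many promoters of mitochondrial proteins.
NDUFA9, chr12:4648864-4649163, plus strand: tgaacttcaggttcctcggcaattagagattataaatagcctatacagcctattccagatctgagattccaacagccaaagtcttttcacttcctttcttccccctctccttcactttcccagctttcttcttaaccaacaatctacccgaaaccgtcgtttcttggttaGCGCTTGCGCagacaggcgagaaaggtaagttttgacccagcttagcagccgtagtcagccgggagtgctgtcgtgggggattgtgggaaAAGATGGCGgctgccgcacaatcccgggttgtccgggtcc
NDUFA6, chr22:42090723-42091022, minus strand: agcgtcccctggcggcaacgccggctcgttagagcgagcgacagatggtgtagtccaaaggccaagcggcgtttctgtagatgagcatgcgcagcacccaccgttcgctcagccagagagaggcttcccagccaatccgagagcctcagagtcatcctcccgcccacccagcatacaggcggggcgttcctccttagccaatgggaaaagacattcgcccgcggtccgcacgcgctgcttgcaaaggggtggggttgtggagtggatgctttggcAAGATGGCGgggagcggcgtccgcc
NDUFS1, chr2:206159395-206159694, minus strand: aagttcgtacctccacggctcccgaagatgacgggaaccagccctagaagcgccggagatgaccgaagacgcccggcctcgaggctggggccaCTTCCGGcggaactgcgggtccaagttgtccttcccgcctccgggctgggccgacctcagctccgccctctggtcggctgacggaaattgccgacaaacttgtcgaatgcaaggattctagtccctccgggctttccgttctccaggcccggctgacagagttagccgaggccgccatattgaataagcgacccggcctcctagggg

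Promoters were found for 32 of the 36 members. The YY1-type letters were in 6 of the 32 (NDUFA6, NDUFA7, NDUFA9, NDUFB8, NDUFS4 and NDUFS7), against 2.14% of 27305 symbols with a promoter. The NRF1-type letters were also in 6 (NDUFA3, NDUFA8, NDUFA9, NDUFA11, NDUFA12 and NDUFB4), against 6.98% of symbols, and the ETS letters in 5 (NDUFA1, NDUFA13, NDUFB7, NDUFS1 and NDUFS3), against 12.2%. These shares are descriptions of letters in a short window. NDUFA9 was the only member with both the NRF1-type and the YY1-type letters. The 6 genes with the YY1-type letters ranged from -1.06 (NDUFA9) to 0.17 (NDUFA6) with a median of 0.05. The 6 with the NRF1-type letters ranged from -1.06 (NDUFA9) to 0.15 (NDUFB4) with a median of -0.04. Members without the letters had medians of 0.01 for the YY1-type and 0.04 for the NRF1-type.

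Genes around NDUFA9 were lower as well. Within 5 Mb, 51 protein-coding genes with a mean of at least 5 FPKM had a median of -0.83, 50 of them were below 0, and 5 were lower than NDUFA9. Among the nearest on the left were RAD51AP1, a DNA repair gene, at 61.4 and 36.8 FPKM, and the kinase gene DYRK4 at 45.1 and 26.9. On the right, the tetraspanin gene CD9 was at 157 and 52.5 FPKM and TNFRSF1A, which encodes a TNF receptor, at 112 and 63.9. Neighbours on either side were thus lower too. Over the whole arm up to 35 Mb, 102 such genes had a median of -0.88, and 98% were lower. Of all 8567 such genes in the table, 4262 were lower. The arm was chosen with earlier results of these data known. AC005832.4 and AC005833.1, which overlap NDUFA9 on the same strand and may share its reads, were at 9.02 and 5.57 FPKM and at 10.9 and 4.55 FPKM. At most 6.82% of the NDUFA9 level, they are small beside it. NDUFA12, a matrix-arm subunit on the other arm of chromosome 12 (94897055 to 95003770), stood at 124 and 120 FPKM, a difference of -0.04, and the 335 genes of that chromosome outside 12p had a median of -0.01. The ratio of NDUFA9 to NDUFA12 fell from 1.38 to 0.679.

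NDUFS1 and NDUFB3 were next lowest, and lie on the long arm of chromosome 2. NDUFS1, the largest subunit, holds iron-sulfur clusters of the N module. It is on the minus strand from 206114817 to 206159603 and stood at 55.5 and 38.7 FPKM, a difference of -0.51 (counting interval -0.60 to -0.42). Its partners in NADH oxidation moved less: NDUFV1, which binds NADH and the flavin, was at 112 and 103 FPKM, and NDUFV2, an iron-sulfur subunit, at 186 and 175. The ratio of NDUFS1 to NDUFV1 went from 0.498 to 0.375, while that of NDUFV1 to NDUFV2 was 0.598 and 0.589. NDUFB3, a small membrane-arm subunit (plus strand, 201071433 to 201085750), stood at 149.9 and 120.3 FPKM, a difference of -0.31 (counting interval -0.41 to -0.22). The 2 genes share a region from 190 to 230 Mb in which 104 protein-coding genes had a median of -0.33, and 86.5% were lower.

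Around NDUFS1, 24 genes within 5 Mb had a median of -0.32, and 6 were lower than NDUFS1. The nearest to it were EEF1B2, a translation elongation factor gene at 465 and 379 FPKM, FASTKD2, a mitochondrial RNA-binding protein gene at 44.9 and 31.6, and CREB1, a transcription factor gene at 27.2 and 30.7. On its other side stood RAPH1 at 8.87 and 4.65 FPKM, ABI2 at 34.04 and 25.7, and CYP20A1 at 16.7 and 9.81. CREB1 was the only higher one of these 6. Around NDUFB3, 37 genes had a median of -0.29, and 17 were lower than NDUFB3. The origin recognition gene ORC2 was at 38.3 and 31.4 FPKM, NIF3L1 at 41.5 and 31.2, FAM126B at 16.4 and 13.3, the apoptosis regulators CFLAR at 80.6 and 44.9 and CASP8 at 57.2 and 47.1, and TRAK2 at 10.8 and 10.2. All 6 were lower in sgTPST2. The windows of NDUFS1 and NDUFB3 share 14 genes and are not separate. NDUFA10, a subunit that resembles nucleoside kinases, lies further out on the same arm (239892450 to 240025402) and stood at 127 and 122 FPKM, a difference of -0.06, with a local median of -0.07. EEF1B2, on the opposite strand, is at over 8 times the level of NDUFS1. The 2 genes overlap only from 206159585 to 206159603, at the start of NDUFS1. The strand setting of the counting is unknown from the sources used here, so reads of that short stretch may be mixed.

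**Figure D3:**
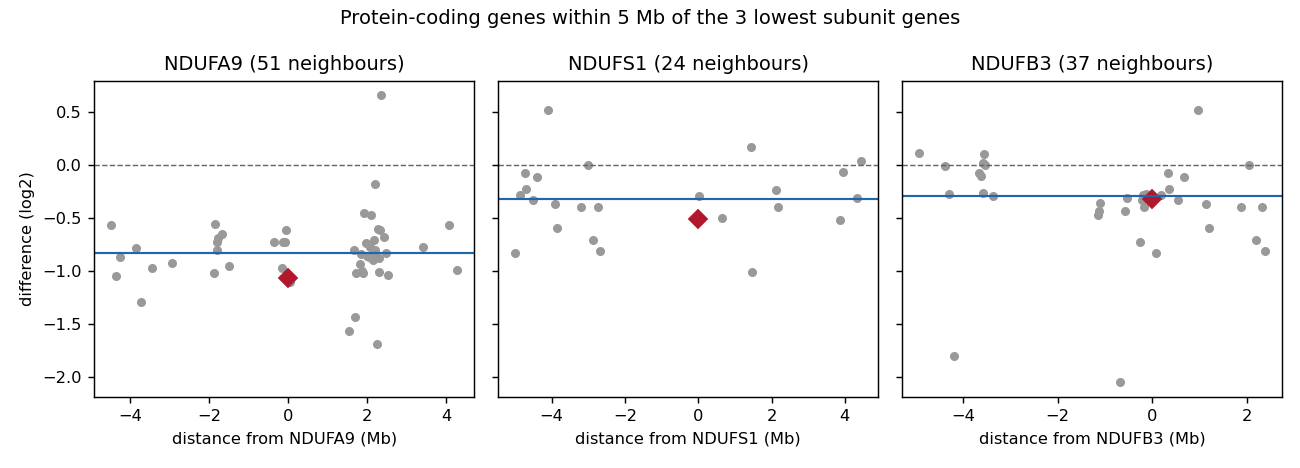
Difference (log2, sgTPST2 against sgGFP) of protein-coding genes within 5 Mb of NDUFA9, NDUFS1 and NDUFB3, against distance in Mb from that gene; red diamonds are the subunit genes, grey points their 51, 24 and 37 neighbours, blue lines the neighbours' medians. The medians lie at -0.83, -0.32 and -0.29, and each subunit gene lies among its neighbours.

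Every member was then set against its own neighbourhood, a comparison chosen after the values were seen. Each of the 36 had between 11 and 151 neighbours within 5 Mb. The local median was beyond 0.2 in either direction for 4 members only: the 3 lowest subunit genes, and NDUFB8 on chromosome 10, whose local median was 0.25 beside its own difference of 0.13 (136 and 149 FPKM). After subtracting the local median, 0 of the 36 were 1.5-fold apart, and the differences ran from -0.25 (NDUFA3) to 0.30 (NDUFB9). Among all genes treated the same way 5.85% were lower and 4.42% higher by that threshold. NDUFA9 then stood at -0.23, NDUFS1 at -0.19 and NDUFB3 at -0.03. Across the 36 genes, the difference and the local median had a Pearson r of 0.84 and a Spearman rho of 0.40. Over the 33 genes outside those regions r was 0.23, so the relation rests on the 3 lowest. Genes on the same chromosome share neighbours, and all values come from the same 2 libraries.

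Of the N module's 8 measured subunits 5 were below 0 and 3 above (median -0.07). All 3 core genes were below 0, with NDUFS1 lowest and NDUFV1 and NDUFV2 at -0.11 and -0.09. Their counting intervals leave out 0, as do those of 65.4% of the 4571 protein-coding genes with a mean of at least 20 FPKM. Of those 4571 genes, 2239 were below 0. Among accessory subunits, NDUFA2, which has a thioredoxin-like fold, was the highest at 89.8 and 106.9 FPKM (0.25). NDUFS4, needed for a stable N module, stood at 159 and 162 FPKM, and the zinc-binding NDUFS6 at 51.9 and 53.8. NDUFV3, at 38.9 and 34.8 FPKM (-0.15), was the lowest subunit gene of the sgTPST2 library.

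In the Q module NDUFA9 stood alone. The other 6 genes had a median of 0.07 and ran from -0.06 to 0.17. The core iron-sulfur subunit NDUFS8, which relays electrons towards ubiquinone, was at 118 and 129 FPKM (0.14), its partner NDUFS7 at 84.4 and 81.2 (-0.06), and the core subunit NDUFS3 at 38.6 and 41.02 (0.08). NDUFS3 overlaps PTPMT1, at 69.0 and 65.8 FPKM, on the same strand and may share reads with it. Accessory members were as close: NDUFA5 at 49.5 and 50.2 FPKM, NDUFA7 at 109 and 113, and NDUFA6 at 34.6 and 38.9. NDUFA6 is a LYR-motif protein that docks NDUFAB1, the mitochondrial acyl carrier protein, which also serves lipoic acid and iron-sulfur cluster synthesis. NDUFAB1 stood at 123 and 122 FPKM (-0.02). The ratio of NDUFA9 to NDUFS7 went from 2.03 to 1.01.

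Subunits of the proximal membrane arm, next to the matrix arm, were nearly level. Their 9 genes had a median of -0.04, with 6 below 0 and 3 above, and none was 1.2-fold apart. NDUFS5, an intermembrane-space subunit held by disulfide bonds, was the most abundant of all members at 443 and 473 FPKM (0.09). NDUFA8, of the same fold, was lower in level, at 71.1 and 69.2 FPKM (-0.04). NDUFA1, a single-pass membrane subunit encoded on the X chromosome, was the highest of the group at 149 and 170 FPKM (0.19). NDUFA11 was at 214 and 236 FPKM (0.14), NDUFA13, also studied as the cell-death regulator GRIM-19, at 110.9 and 110.8 (-0.00), and NDUFC2 at 205 and 197 (-0.06). NDUFC1 at 59.5 and 56.4 FPKM (-0.08) and NDUFA3 at 101 and 88.7 (-0.18) made up the rest with NDUFA10.

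Distal membrane-arm genes lay mostly above 0. Of the 11 NDUFB genes 9 were above 0 and 2 below, with a median of 0.13, and their summed level was 5.28% higher in sgTPST2. Among protein-coding genes with a mean of at least 20 FPKM, 2332 of 4571 were above 0. NDUFB6 was the highest of all members, at 43.7 and 54.6 FPKM (0.32). NDUFB2 was at 251 and 296 FPKM (0.24), and NDUFB9, a LYR protein that docks a second acyl carrier, at 185 and 212 (0.20). Next came NDUFB4 at 119.6 and 133 FPKM (0.15) and the intermembrane-space subunits NDUFB10 at 112 and 124 (0.14) and NDUFB7 at 127 and 135 (0.08). NDUFB5 was level at 210.2 and 212.1 FPKM, as were NDUFB11 at 177 and 183 and NDUFB1, the second most abundant member, at 399 and 394. The ratio of NDUFB3 to NDUFB5 went from 0.713 to 0.567. Short transcripts as a whole lay above 0 too. Protein-coding genes with a mean of at least 20 FPKM and a principal transcript of at most 1000 bases had a median of 0.08. Of these 596 genes, 391 were above 0. Of the 36 members, 23 have a principal transcript that short. Over the 33 members off 12p and 2q, the difference and that length had a Spearman rho of -0.34. Within the distal group the lengths were mixed. NDUFB6, the highest, has 1366 bases, and NDUFB2, the next, has 504. NDUFB11 (0.05) and NDUFB5 (0.01) have 1388 and 1141, while NDUFB1 and NDUFB3, the 2 below 0, have 417 and 503. The part of transcript length in these small differences was not tested.

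The complex I genes of mitochondrial DNA were lower, unlike most nuclear ones. All 7 were below 0 (median -0.44), 2 of them by 1.5-fold, against 6.94% of all genes. MT-ND1, which forms the ubiquinone tunnel next to NDUFA9, was the lowest at 23.7 and 13.9 FPKM (-0.72), and MT-ND2, a proton-pumping subunit, was at 14.7 and 9.25 (-0.62). The pump subunits MT-ND4 and MT-ND5 stood at 40.4 and 30.1 FPKM and at 26.1 and 19.03. MT-ND4L was at 63.3 and 44.5 FPKM, MT-ND3 at 161 and 132, and MT-ND6, the only one of the 7 on the other strand of the mitochondrial genome, at 7.72 and 6.59. The counting interval of MT-ND6, from -0.58 to 0.18, includes 0, so at this depth its difference could not be told from 0. Summed over the 7 genes, the level dropped by 24.1%, while the nuclear sum was 1.07% higher. The mitochondrial rRNAs went the other way, MT-RNR1 from 93.8 to 132 FPKM and MT-RNR2 from 191 to 234. The 6 other mitochondrial messages had a median of -0.53. The exception among them was MT-ATP8, at 32.4 and 31.8 FPKM (-0.02), whose counting interval from -0.67 to 0.62 is wide.

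Other nuclear genes of the chain were as level as those of complex I. The 39 nuclear subunits of complexes II to V had a median of 0.02 with 0 genes 1.5-fold apart in either direction. The largest differences were those of SDHC (0.15) and SDHA (-0.13) in complex II, UQCR10 (0.19) and UQCRQ (0.14) in complex III, COX8A (0.22) and COX5B (0.20) in complex IV, and the ATP synthase genes ATP5F1D (-0.30) and ATP5PD (0.29). The 20 assembly factors, which build the complex without staying in it, had a median of -0.06, with 13 below 0 and 0 of them 1.5-fold apart. NUBPL, which delivers iron-sulfur clusters to complex I, was the lowest at 11.1 and 7.64 FPKM (-0.48), followed by NDUFAF3, a partner in Q-module assembly, at 45.5 and 34.9 (-0.37). Of 14 regulators of respiratory genes 13 passed 1 FPKM, with a median of -0.09 and 0 of them 1.5-fold apart. The nuclear receptor gene ESRRA was at 19.8 and 15.3 FPKM (-0.36) and LRPPRC, which stabilises mitochondrial messages, at 144 and 118 (-0.28), while PPARGC1A is listed at 0 in both. Of 5 genes whose enzymes pass electrons to ubiquinone without complex I, with a median of -0.13, DHODH, of pyrimidine synthesis, was 1.5-fold lower at 11.2 and 6.98 FPKM (-0.62), followed by SQOR, which oxidises sulfide, at 9.66 and 8.03 (-0.24).

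**Figure D4:**
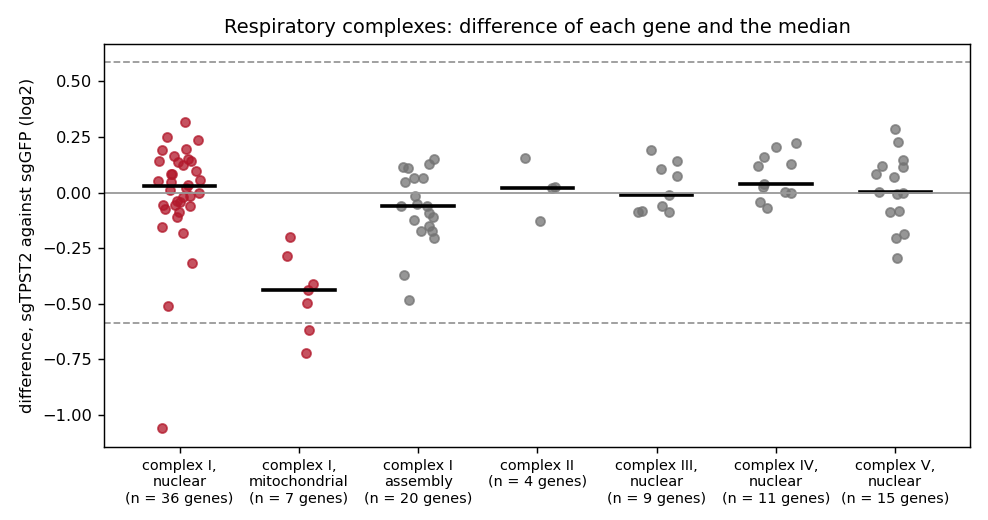
Difference (log2, sgTPST2 against sgGFP) of each gene (points, spread sideways for visibility) and the median (black bars) for nuclear and mitochondrial complex I genes, complex I assembly factors and nuclear genes of complexes II to V; dashed lines mark 1.5-fold. The 7 mitochondrial genes have a median of -0.44 while the medians of the other groups lie between -0.06 and 0.04.

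Related copies hold little of the signal. The table lists 54 pseudogenes named after members, 42 of them at 0 in both libraries and 2 at 1 FPKM or more: NDUFB1P1 at 1.43 and 2.28 FPKM and NDUFV2P1 at 2.04 and 1.32. Those levels are small beside NDUFB1 and NDUFV2, but reads of a member could be lost to a copy, so the division between them is uncertain. Of the 36 members, 14 overlap a gene of the opposite strand that reached 1 FPKM, among them NDUFA7 with the ribosomal protein gene RPS28 at 460 and 490 FPKM and NDUFC1 with NAA15 at 28.4 and 24.9.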

How the data were processed

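Members, lists and the 12p and 2q regions were chosen with earlier results of these data known. STAR and Cuffdiff were used by the authors with build hg38, per the submitters' processing notes. Versions, annotation and strand setting are missing from the sources used here. The deposited table gives 1 FPKM value per gene and culture, the unit being assumed from Cuffdiff since the header names none and the column sums alone would also fit TPM, with the authors' p-value, q-value and log2 fold change. The deposited test score was not used. Libraries were made from total RNA with a stranded kit, per the labels' protocols. Gene positions came from GENCODE 29, which held all 58698 identifiers.

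A gene was kept if its level reached 1 FPKM in either library. Differences used a pseudocount of 1. Depth was fitted to low values of genes with 1 transcript: 91.8% of 830 values in sgGFP and 93.2% of 775 in sgTPST2 came within 0.1 of whole fragments, on the same values as the fit. Counting intervals (95%, normal approximation on the log scale) took at most 1 kb of the principal transcript. Members rest on at least about 1044 fragments per library. Named genes were all members, TPST2, the 7 mitochondrial ND genes, in the lists of assembly factors, complexes II to V and regulators every gene 1.5-fold apart with a higher value of at least 5 FPKM or, failing that, the 2 largest differences, the 3 nearest expressed neighbours on each side of members on 12p and 2q, pseudogenes at 1 FPKM or more and overlapping genes; of the last, examples are named. DCN, CD3E, PECAM1, VIM, KRT8, EPCAM and CDKN2A came from the marker lists, as did the markers of other cells that reached 1 FPKM. DHODH, SQOR, MT-ATP8 and the mitochondrial rRNAs fall outside that rule and were named after their values were seen. Python 3.11.15, pandas 2.3.3 and matplotlib 3.10.9 were used, and the scripts were tested on simulated data.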

Additional observations from a re-analysis of the deposited data

How the results depend on the processing

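No paired analysis was possible because there is 1 library per group, which also leaves no replicate to omit. The count of members 1.5-fold lower was 1 and became 0 without members on 12p and 2q, 0 relative to neighbours within 5 Mb (added after seeing the data) and 3 at 1.2-fold, where 1 was higher in place of 0. The other 87 of 91 values stayed within their bounds, 1.5 times for a count and the counting half-width for a difference. Among them were all 33 with the same upper quartile, the same sum or centring on the median protein-coding gene. For medians and the spread, the bound was the median half-width of single genes. That is 0.07 beside a subunit median of 0.03, a loose bound. The low-value filters and the changed backgrounds left every value as it was, and a background does not enter the value at all. NDUFA9 ranged from -1.07 to -1.05, NDUFS1 from -0.52 to -0.49 and NDUFB3 from -0.32 to -0.30. The subunit median ranged from 0.02 to 0.05. Filters on low values removed no member. Among the mitochondrial messages, depth left the counting intervals of MT-ND6 and MT-ATP8 wide enough to include 0.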
